A study of Mus musculus with 3 samples.

Results

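The genes described here encode 10 protein factors of the machinery that cuts messenger RNA precursors at their 3′ end before a poly(A) tail is added. They are Cpsf1, Cpsf2, Cpsf3, Cpsf4, Cpsf6, Cpsf7, Cstf1, Cstf2, Cstf2t and Cstf3. They were chosen by gene symbol in the platform annotation, and all 10 were measured, among 19938 named genes in all. Cstf2t was singled out because it had been seen at a low level on the same arrays, so its level and its comparison with Cstf2 are given as a description without a test. The samples were 3 replicate RNA preparations labelled as spermatids, the haploid cells that become sperm, from testes of wild type male BALB/c mice aged 30 days. They form 1 group with no treatment, mutant or control, and the labels do not state that each replicate is a different mouse, so the spread between them may be technical. The protocol describes a strained suspension of all testis tubule cells and names no step that isolates spermatids. RNA was hybridised to the single-colour Affymetrix Mouse Gene 1.0 ST array, and the values are log2 levels from Robust Multichip Average (RMA), the authors' normalization and probe set summary.

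Most animal messenger RNAs end in a poly(A) tail that is added after the transcript has been cut. The cleavage and polyadenylation specificity factor (CPSF) recognises the AAUAAA signal and makes the cut, the cleavage stimulation factor (CstF) binds the U-rich or GU-rich stretch downstream of it, and cleavage factor I (CFIm) binds UGUA elements upstream and affects which of several sites is used. Male germ cells are known for using poly(A) sites with unusual signals and for messages with short 3′ ends. Cstf2 encodes the RNA-binding subunit of CstF from chromosome X, which is silenced during male meiosis, and Cstf2t encodes a close relative of that subunit from an intronless copy on chromosome 19, known in mice for its part in making sperm.

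The genes compared most closely below can be shown by the DNA around their starts, from RefSeq on build GRCm38.p6, each window running from 250 bases before the annotated start to 50 bases after it. The windows are Cstf2t at chr19:31082591-31082890 on the plus strand, Cstf2 at chrX:134058926-134059225 on the plus strand, and Papolb, an intronless testis poly(A) polymerase gene, at chr5:142530027-142530326 on the minus strand. They are shown because Cstf2t and Papolb are the intronless germ cell genes of this pathway and Cstf2 is the X-linked counterpart of Cstf2t. Each is written 5′ to 3′ along the gene, with matches on either strand in capitals. The words searched were GGGCGG, known as the GC box, the CCAAT box, the word TATAAA of the TATA box, and the word TGACG of the cAMP response element.
Cstf2t: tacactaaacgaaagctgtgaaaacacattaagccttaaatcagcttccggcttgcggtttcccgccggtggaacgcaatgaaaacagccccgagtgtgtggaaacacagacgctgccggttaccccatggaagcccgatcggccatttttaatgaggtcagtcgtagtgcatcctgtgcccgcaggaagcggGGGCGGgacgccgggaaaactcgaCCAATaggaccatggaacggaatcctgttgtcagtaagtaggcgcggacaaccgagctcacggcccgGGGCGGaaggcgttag
Cstf2: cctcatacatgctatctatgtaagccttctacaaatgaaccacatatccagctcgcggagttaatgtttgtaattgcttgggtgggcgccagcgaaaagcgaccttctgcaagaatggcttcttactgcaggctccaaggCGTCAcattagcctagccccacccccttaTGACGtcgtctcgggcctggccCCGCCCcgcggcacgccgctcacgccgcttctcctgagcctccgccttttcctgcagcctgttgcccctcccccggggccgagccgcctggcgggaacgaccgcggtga
Papolb: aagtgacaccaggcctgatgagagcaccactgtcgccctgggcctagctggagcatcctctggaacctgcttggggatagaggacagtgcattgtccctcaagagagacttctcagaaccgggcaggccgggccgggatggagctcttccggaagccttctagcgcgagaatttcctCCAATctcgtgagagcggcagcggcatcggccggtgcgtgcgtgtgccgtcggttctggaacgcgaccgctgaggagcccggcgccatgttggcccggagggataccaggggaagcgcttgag

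The Cstf2t window held 26 CpG dinucleotides, 2 GC boxes and 1 CCAAT. The Cstf2 window held 24 CpG, 1 GC box and 2 matches to TGACG, and the Papolb window 23 CpG and 1 CCAAT. None of these 3 windows held TATAAA or the full response element TGACGTCA, a longer word that contains TGACG. Among all 32851 windows of the same length the median was 7 CpG, and 35.7% held a GC box, 37.4% a CCAAT, 13.6% a TATAAA, 20.8% a TGACG and 1.8% the full element. Of the 10 factor genes 9 had a window, all but Cpsf1. Their windows were alike in base composition, with 24 to 35 CpG and a GC content of 56.7% to 67.3%, against a median of 52.7% over all windows. The GC box was found in 6 of the 9 genes, TGACG in 5, CCAAT in 2 and TATAAA in none. These are matches of letters, not known binding sites.

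With 1 group and no control, a level could be set only against genes not expected in testis. The background level used was 7.98, the 95th percentile of 211 vomeronasal receptor and hair keratin associated protein genes, and a gene was called above it when limma's one-sided p, adjusted by Benjamini-Hochberg over all named genes, was under 0.05. Of the 10 factor genes 8 were called, and of all 19938 named genes 36.6% were. That Cstf2t is among the uncalled genes follows from how it was picked, and nothing is read from it. The median level of the factor genes was 8.85, against 7.45 for all named genes, and 9 of the 10 lay above that median. Probes of one gene can bind better than those of another, so percentiles and other places among genes describe probe set levels and do not rank RNA amounts. Going by the protocol, the levels describe RNA of a mixed suspension. In such RNA, fewer cells of a type and less RNA per cell cannot be told apart.

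**Figure D1:**
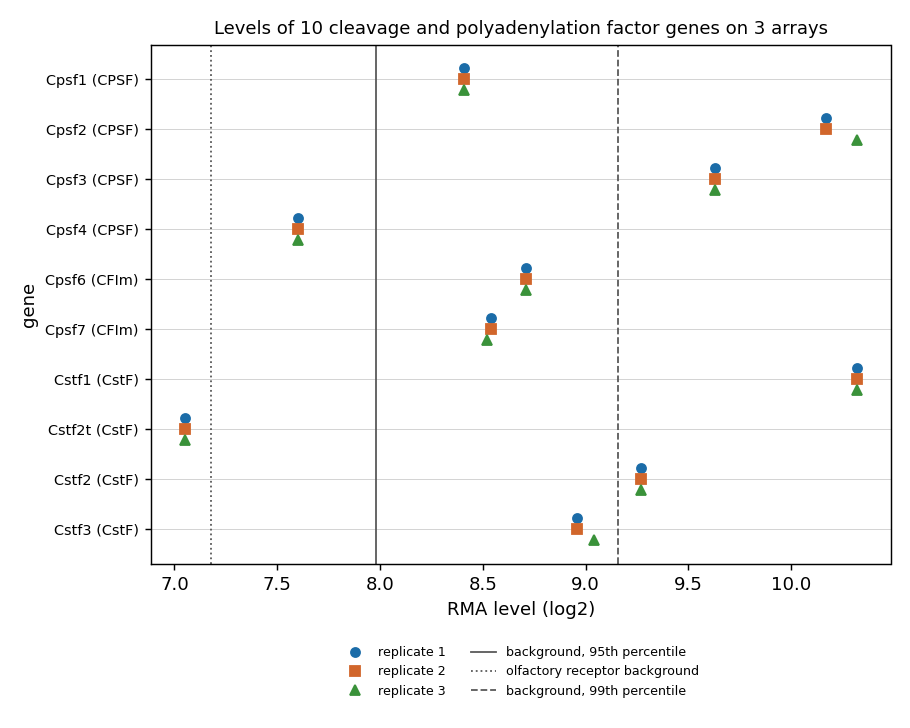
RMA level (log2, horizontal axis) of each of the 10 factor genes (rows) on the 3 arrays (point shapes), with 3 choices of background level as vertical lines. Cstf2t and Cpsf4 lie left of the solid line at 7.98, the other genes lie right of it, and the 3 arrays nearly coincide for every gene.

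The CPSF genes covered a wide range. Cpsf2, which encodes a scaffold subunit related to the nuclease, read 10.17, 10.17 and 10.32 in replicates 1, 2 and 3. Cpsf3, the gene of the nuclease that makes the cut, read 9.63 on every array, and Cpsf1, the gene of the largest subunit, 8.41 on every array. These 3 genes were called above background, and Cpsf2 was the only CPSF gene of the 4 whose value differed between arrays. Cpsf4, which encodes a zinc finger subunit that helps to read the AAUAAA signal, read 7.60 on every array, 0.38 under the background level, and was not called. Its level was at percentile 53.7 of all named genes, against 89.9 for Cpsf2, 84.4 for Cpsf3 and 69.1 for Cpsf1. Cpsf4 was called when olfactory receptor genes, with a lower level of 7.18, served as the background. With vomeronasal receptor pseudogenes left out of the background the level was 7.64, just over that of Cpsf4, which was still not called.

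Both CFIm genes of the set were called, at moderate levels. Cpsf6 and Cpsf7 encode alternative larger subunits of CFIm. Cpsf6 read 8.71 on every array and Cpsf7 8.54, 8.54 and 8.52, at percentiles 73.3 and 70.8 of all named genes. Neither Cpsf6 nor Cpsf7, nor Cpsf1 at 8.41 or Cstf3 at a mean of 8.99, was called at the stricter 99th percentile of the background families, 9.16. At that level 4 of the 10 genes were called, namely Cpsf2, Cpsf3, Cstf1 and Cstf2, against 19.3% of all named genes.

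Of the CstF genes, Cstf1, Cstf2 and Cstf3 were called above background. Cstf1, which encodes a WD repeat subunit, read 10.32 on every array, at percentile 90.7. Cstf3, the gene of the subunit that holds the complex together, read 8.96, 8.96 and 9.04. Cstf2t read 7.05 on each of the 3 arrays and Cstf2 read 9.27 on each. The Cstf2t level lay 0.93 under the background level, and that of Cstf2 lay 1.29 over it.

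Each gene of the Cstf2t and Cstf2 pair was measured by a single probe set, and the annotation assigned neither probe set to another gene. The difference, Cstf2t minus Cstf2, was -2.22 on each array, and since all values were tied it carries no replicate error. It compares different probes, so its size is not a ratio of RNA amounts. Cstf2t stood at percentile 39.5 of all named genes, and 20 of the 211 background genes read higher. Cstf2 stood at percentile 80.3, with 2 background genes higher. A level under the background level does not show that Cstf2t RNA was absent, since the median of the background families was 4.77.

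Set among genes of its own chromosome, Cstf2t had 420 of 678 measured chromosome 19 genes above it. Cstf2 had 91 of 742 measured chromosome X genes above it, and 27.5% of the X-linked genes were called. Cstf2t lies within the span of Prkg1, a protein kinase gene on the opposite strand, which read 7.75 on every array and was not called. Papolb lies within the span of Radil on the same strand, and Radil read 7.47. Among the other factor genes, Cpsf3 overlaps Itgb1bp1, Cpsf7 overlaps Tmem216, Cstf1 overlaps Aurka and Cstf2 overlaps Nox1, in each case on opposite strands. Nox1 read 5.35, while Tmem216 and Aurka read 9.31 and 9.93. Cpsf1 overlaps Adck5, which read 7.81.

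**Figure D2:**
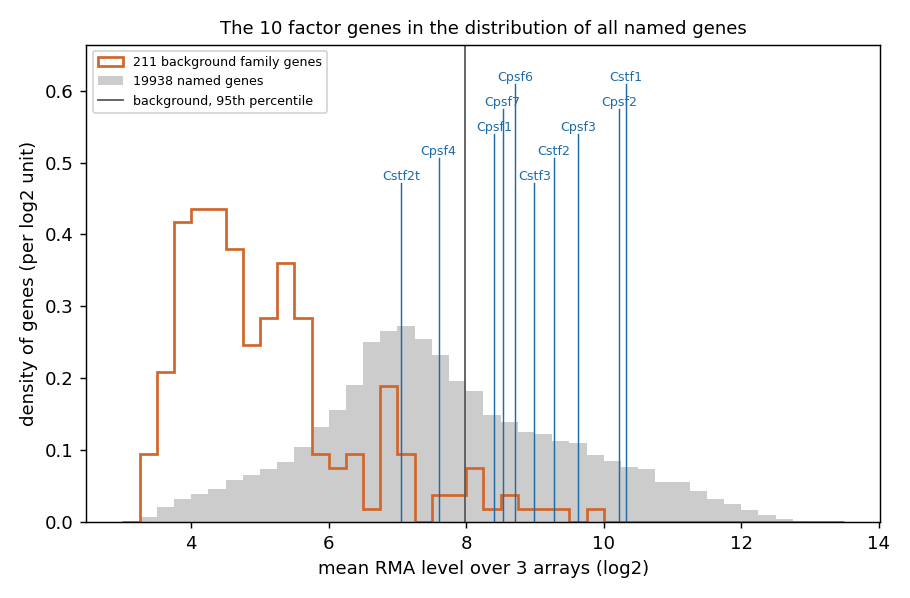
Density of the mean RMA level (log2, horizontal axis) of 19938 named genes (filled) and of 211 background family genes (outline), with the 10 factor genes as labelled lines and the background level of 7.98 as a dark line. Cstf2t at 7.05 and Cpsf4 at 7.60 lie in the middle of all genes, while Cpsf2 and Cstf1 lie in the upper tail.

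The arrays gave nearly or exactly the same values for these genes. Replicates 1 and 2 had equal values for all 10 genes, against 58.0% of all named genes. Of the 10 genes 7 were tied on all 3 arrays, against 46.0% of all named genes. Among all named genes, 51.6% of those between 7 and 8 were tied and 48.4% between 8 and 9. Ties were fewer at higher levels, with 37.0% between 9 and 10 and 27.7% between 10 and 11. Of the tied factor genes, Cpsf3 and Cstf2 lay between 9 and 10, and Cstf1 between 10 and 11. The genes that differed were Cpsf2, Cpsf7 and Cstf3, all in replicate 3, with SDs of 0.08, 0.01 and 0.04 (n = 3). Replicate 3 was higher for Cpsf2 and Cstf3 and lower for Cpsf7. A tied value shows no replicate error and is not an error of 0. Over all 35556 probe sets Pearson's r between arrays was 0.992 to 0.995, and 36.5% of probe sets were tied on all 3. Exactly equal values on this scale are unusual for RMA on separate arrays, and their cause is not known. Tied values enter r too, so neither r nor the ties are read as a measure of reproducibility.

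The rest of the pathway was read in 20 further genes, of which 14 were called above background, against 36.6% of all named genes. Their median level was 9.24, against 7.45 for all named genes. Among 7 other core factors 6 were called. Fip1l1, the gene of a CPSF subunit that binds poly(A) polymerase, read 10.74, 10.58 and 10.74 (adjusted p = 0.000275, limma), and Wdr33, the gene of the subunit that contacts AAUAAA beside Cpsf4, read 10.12 on every array. Pcf11, which links cleavage to transcription termination, read 10.61, 10.53 and 10.69 (adjusted p = 0.000194, limma), and Clp1, its partner in cleavage factor II, 9.02 on every array. Rbbp6, a cleavage activator gene, averaged 10.49 ± 0.01 (SD, n = 3).

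Some of these genes had several probe sets that read apart. Nudt21, the gene of the CFIm subunit that binds UGUA and pairs with Cpsf6 or Cpsf7, had probe sets at 9.72 and 11.13, and both lay above the background level. Those of Rbbp6 read 10.44, 10.48 and 12.15. Sympk, the gene of the scaffold protein symplekin, was the uncalled core factor with a median of 7.18. Of its 3 own probe sets, 2 had the same values of 7.08, 7.38 and 7.07, and the third read 9.76 on every array. A further 7 probe sets shared by Sympk with Notch4 or Erbb2 read 4.53 to 5.32, so the level of Sympk is uncertain.

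Of 5 genes for adding and binding the tail, 4 were called. Papolb, the poly(A) polymerase gene of testis, read 12.001, 11.936 and 12.203, at percentile 99.3 of all named genes (adjusted p = 0.00027, limma). Papola, the general poly(A) polymerase gene, read 11.25, 11.09 and 11.32 (adjusted p = 0.000303, limma), and Papolg, a further nuclear polymerase gene, 9.35, 9.07 and 9.46 (adjusted p = 0.00621, limma). Replicate 2 was the lowest array for all 3 polymerase genes, and Papolg was no longer called without replicate 1 (adjusted p = 0.0801, limma) or without replicate 3 (adjusted p = 0.0896, limma, from 0.000107 to 0.85 over its alternatives). Pabpn1, which encodes the nuclear poly(A) binding protein, read 11.72 on every array, and its relative Pabpn1l, known from oocytes, read 6.38 on every array and was not called.

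Of 8 relatives of the CPSF genes and factors of histone message ends, 4 were called, a share near the 36.6% of all named genes. Ints9 and Ints11, Integrator genes related to Cpsf2 and Cpsf3, read 9.18 and 7.52 on every array, and of these Ints9 was called. Cpsf4l, a Cpsf4 relative, read 7.38 on every array and was not called, so both Cpsf4 and Cpsf4l were under the background level. Replication-dependent histone messages are cut by the same nuclease but get no tail, and 3 of 5 genes of that route were called. Slbp, the gene of the stem-loop binding protein, averaged 9.95 ± 0.08 (SD, n = 3). Lsm10, whose protein sits in the small nuclear particle that pairs with histone messages, averaged 8.79 ± 0.03, and Casp8ap2, a partner of that particle, 8.53 ± 0.07 (SD, n = 3 each). Casp8ap2 lost its call without replicate 1 (adjusted p = 0.0505, limma) or without replicate 2 (adjusted p = 0.0702, limma, from 2.6e-17 to 1.0 over its alternatives). The lowest of these p-values came without replicate 3, where the remaining values were equal at 8.50, so its size reflects that tie. Lsm11, a further gene of that particle, and Zfp473, a zinc finger gene that acts with it, read 7.35 and 7.14 on every array and were not called. With the lower olfactory receptor background of 7.18, Ints11, Cpsf4l and Lsm11 were called and Zfp473 was not.

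**Figure D3:**
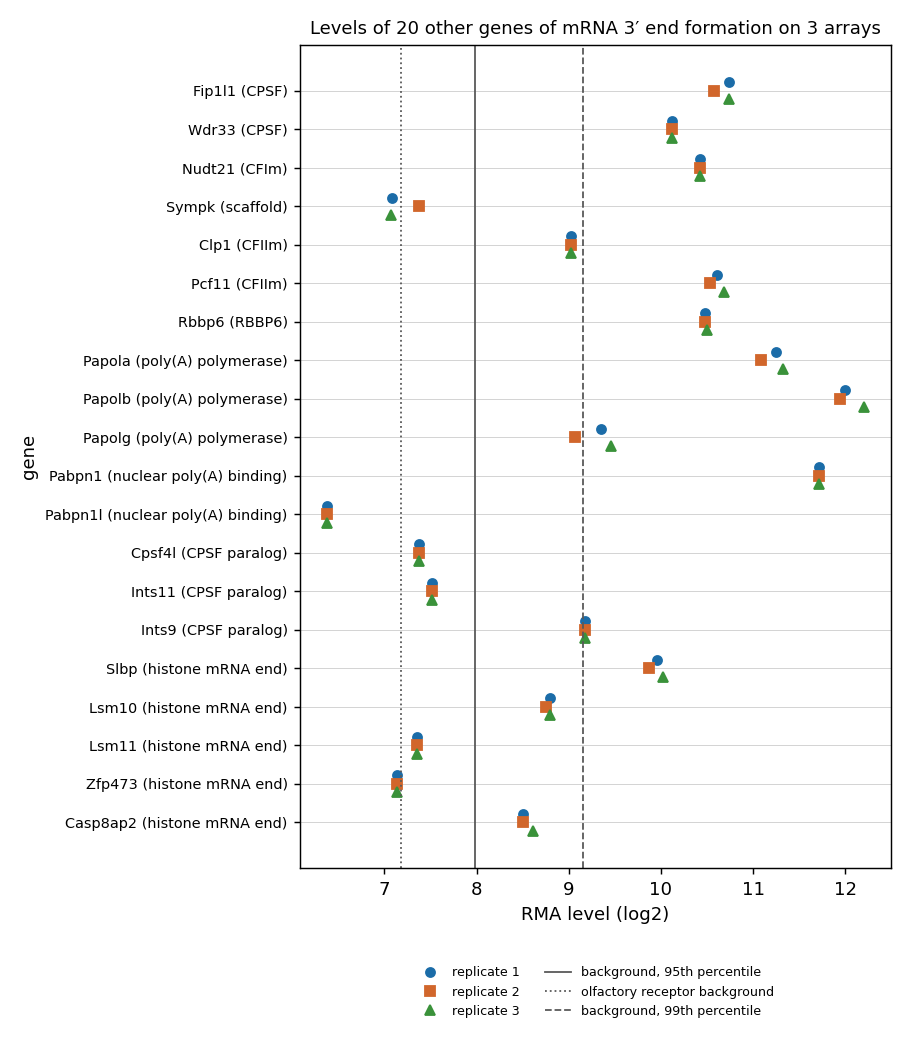
RMA level (log2, horizontal axis) of 20 other genes of mRNA 3′ end formation (rows, with their role) on the 3 arrays (point shapes), with 3 choices of background level as vertical lines. Papolb, Pabpn1 and Papola lie farthest right, and Pabpn1l at 6.38 farthest left.

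Cstf2t is one of several autosomal copies of X-linked genes that are known from male germ cells, and 5 other such pairs had probe sets of their own. In these, 4 of 5 autosomal genes and 2 of 5 X-linked genes were called, the second a share near the 36.6% of all named genes. Of the glycolytic phosphoglycerate kinase genes, Pgk2 read 12.33, 12.27 and 12.42, and Pgk1 8.88 on every array. Of the pyruvate dehydrogenase subunit genes, Pdha2 averaged 10.78 and Pdha1 7.54. Of the centrin genes, Cetn1 averaged 10.20 and Cetn2 6.67, and in these last pairs the autosomal gene was called and the X-linked gene was not. Pdha1 was called with the olfactory receptor background (adjusted p = 7.05e-10, limma, from 7.05e-10 to 1.0 over its alternatives). Its values were tied on every array, so that p shows only that 7.54 lies above that background level of 7.18. Cetn1 lost its call without replicate 1 (adjusted p = 0.0505, limma) or without replicate 2 (adjusted p = 0.0609, limma, from 2.77e-05 to 0.0609 over its alternatives).

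The other pairs were less clear. Of the ribosomal protein genes, Rpl10l averaged 9.89 and Rpl10 11.33, both called, and Rpl10 rested on 6 probe sets. Of the RNA-binding protein genes, Rbmxl2 averaged 7.68 and Rbmx 6.78, neither called, but 3 probe sets that Rbmx shares with Rbmxl1 read 9.33 to 9.40. With those shared probe sets added Rbmx was called (adjusted p = 0.000155, limma, from 0.000155 to 1.0 over its alternatives) and Rbmxl2 was not. With the olfactory receptor background Rbmxl2 was called and Rbmx was not. The Utp14 pair was incomplete, since the probe set of Utp14b is shared with Acsl3, where it read 9.69, and Utp14a read 6.70. Whether the probes bind equally well was not tested for any pair.

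**Figure D4:**
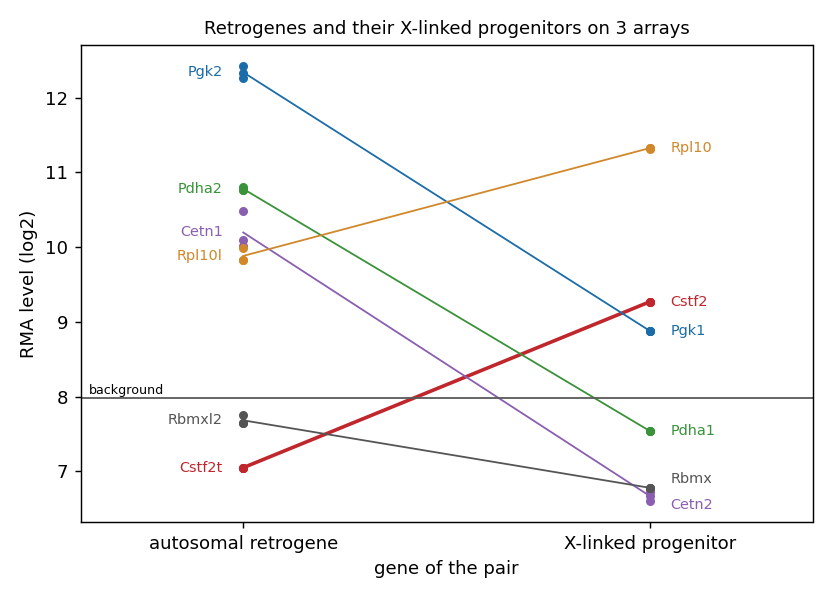
RMA level (log2, vertical axis) of 6 autosomal retrogenes (left) and their X-linked progenitors (right), with a point per array and a line joining the means. The line of Cstf2t (7.05) and Cstf2 (9.27) ends higher on the right, as does that of Rpl10l (9.89) and Rpl10 (11.33), and the other 4 lines end lower on the right.

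Marker genes of germ cells and of somatic testis cells were read on the same arrays. All 10 elongating spermatid genes were called, from Spata18 at 11.27 to Prm2 at 13.22, as were all 10 round spermatid genes, from Catsper3 at 10.31 to Pgk2 at 12.34. All 10 genes listed for pachytene spermatocytes were called too, from Spag6 at 9.71 to Ldhc at 12.92. Of the genes listed for spermatogonia 4 of 10 were called, from Nanos2 at 6.59 to Dmrtb1 at 8.86, a share near the 36.6% of all named genes. Of somatic markers, 6 of 9 measured Sertoli genes were called, from Amh at 5.91 to Cst12 at 11.81, and 7 of 8 measured Leydig genes, from Nr5a1 at 7.69 to Cyp17a1 at 11.36. Genes listed for spermatocytes and for Sertoli and Leydig cells were thus among those called. A gene listed for one stage may also be expressed at another, and these arrays cannot show which cells its RNA came from. The part of each cell type in the levels of the factor genes was not tested.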

How the data were processed

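Expression was measured on 3 single-colour arrays, replicates of 1 group mapped by their titles. Per the series' design text the authors made the deposited log2 values with RMA in Affymetrix Power Tools on annotation based on mm9, with no software version stated. Column medians were 7.17, 7.20 and 7.17. Scanner files were not used here, and the number of arrays limits the precision.

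The platform annotation named 1 gene for 21789 of 35556 probe sets, several for 1621 and none here for 12146. Symbols were updated by Entrez identifier (21698 matched), and each gene was given the median of the probe sets naming it alone. Calls used limma 3.58.1 in R 4.3.3, an intercept model with a one-sided test against the background level. Its p-values count only the spread between the arrays. They take the background level as fixed and hold no error for how well the probes of a gene bind. A check on simulated data had no tied genes and took the background level as known. It therefore does not cover tied genes or the choice of background. Tied genes have an SD of 0, so for them the call asks only whether the level lies above the background. Named genes were all 10 factors, every gene of the pathway and pair lists, and the highest and lowest gene of each marker list. Members and lists were chosen with earlier results of these data known. Alternatives changed the background, the probe sets, the normalization, the tied genes, the calling rule and the replicates.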

Additional observations from a re-analysis of the deposited data

How the results depend on the processing

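The count of 8 called factor genes was 4 at the 99th percentile background, where 3847 of all genes were called, and 9 with olfactory receptor genes as background, where 10958 were. With tied genes left out, 3 of the 3 factor genes that remained were called, 9 of 10 other pathway genes and 4547 of 10765 genes in all. Cpsf4 and Cstf2t, the factor genes not called before, are both tied. No uncalled factor gene was therefore left in that setting. The count of called factor genes was also 8 with the highest or lowest probe set per gene and with probe sets of several genes added. Each factor gene has a single probe set, shared with no other gene. These choices could therefore act only through the other genes and the background. The count was 8 too with the columns quantile normalized again, all 3 arrays above the level, or each replicate left out. Of all named genes 33.4% to 37.6% were called in these settings. The background level stayed at 7.94 to 7.98 in them. For factor genes with tied values, asking for all 3 arrays or leaving 1 out could act only through this level and the other genes. The count was also 8 with vomeronasal receptor pseudogenes left out of the background. That alternative was chosen after seeing the data and gave 8701 genes in all. The count of 14 other pathway genes was 12 to 13 with a replicate left out and 10 to 17 under the remaining alternatives that kept tied genes. At the 99th percentile background Clp1, Papolg, Lsm10 and Casp8ap2 lost their calls, as did Pgk1 of the pairs. The mean level of the factor genes was 8.87, against a median of 8.85. Cstf2t minus Cstf2 was -2.22 under each alternative that gave it a value. Only normalizing again could have changed this difference, since each gene has a single probe set and equal values on all 3 arrays. No paired analysis was possible because the samples form 1 group. Depth does not apply to arrays, and without scanner files signal over background could not be read for a single probe.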
